A study of Caenorhabditis elegans with 12 samples.

Results

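The highly transcribed type I piRNA precursors are the 566 type I loci that were chosen by 1 value: a csRNA level of at least 200 normalised counts in the CIP-TAP library of control animals. They were 566 of 7203 type I loci with csRNA in that library, and of 13844 type I loci with any row in the deposited tables. Their csRNA level in that library, which chose them, is given here as a description only. They are followed through all 12 small RNA libraries of the series, together with the mature piRNA counted at the same locus.

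Type I piRNAs of Caenorhabditis elegans are 21-nt RNAs with a 5′ uridine that are bound by the Argonaute PRG-1 in the germ line and guide the silencing of foreign and unwanted transcripts. Each comes from its own small transcription unit, recognised through an upstream Ruby motif by PRDE-1, SNPC-4, TOFU-4 and TOFU-5. RNA polymerase II makes a short capped transcript, the csRNA, whose first bases and cap are cut away and whose 3′ end is trimmed to give the mature piRNA. ATTF-6 is a protein with AT-hooks, small modules that bind AT-rich DNA, and the study asked whether it is needed for transcription of these units.

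The libraries were made from whole adult worms grown at 20 °C. In the depletion experiment the tested animals carried GFP::tev::aid::attf-6 together with wrdSi51, a mex-5p transgene that makes TIR1 in the germ line and so removes the tagged protein on auxin, and the controls carried wrdSi51 alone; both were moved to 4 mM auxin from the L4 stage. There were 2 PIR-1 libraries of depleted animals, 2 of controls, and 1 CIP-TAP library of each. In the deletion experiment, without auxin, a strain lacking IV:13709294-13709476 (ΔPeak1) and a strain lacking IV:14387943-14388536 (ΔPeak2), both in an attf-6::3xflag background, were set against attf-6::3xflag itself, with 2 PIR-1 libraries each. PIR-1 removes 5′ phosphates and leaves caps in place, so these libraries hold mature piRNAs, siRNAs and miRNAs, while treatment with alkaline phosphatase and then tobacco acid pyrophosphatase (CIP-TAP) lets capped RNAs be cloned. Each CIP-TAP group is 1 library, so its values have no replicate check.

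The summed counts of a library ranged between 6352629 and 31931330. A normalised count is a count divided by 1 constant of the library, which was between 3804460 and 7857706, and multiplied by 1000000, so that 3 counts correspond to between 0.382 and 0.788 normalised counts. The study describes its replicates as biological, and replicate libraries differed by more than counting noise in every group with 2. The libraries are bulk samples of whole animals, in which fewer germ cells and less RNA per germ cell cannot be told apart, and the study describes a smaller germ line after depletion. Of 8 germ line and embryo miRNAs listed, 7 were matched (miR-35 to miR-41). They summed to 16155 and 10904 normalised counts in depleted animals, against 99948 and 96713 in controls. All 7 were called lower, where 54.6% of all features were called lower in the same fit. The 2 matched somatic miRNAs of 6 listed, miR-228-5p and let-7-5p, summed to 23234 and 26836 in depleted animals, against 19208 and 16829 in controls. miR-228-5p was called higher (edgeR adjusted p = 0.0279), as 12.7% of all features were, and let-7-5p was not called (edgeR adjusted p = 0.0558). The part of the germ line difference in the results below was not tested.

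Of the 566 precursors, 565 lay on chromosome IV. The large cluster II held 534 of them, between IV:13624678 and IV:17210039, and cluster I held 31, between IV:4908984 and IV:6494725 (positions from the WBcel235 annotation). The precursors made up 4.96% of the type I loci of cluster II and 1.22% of those of cluster I. Between the first and the last precursor of cluster II, each of 36 windows of 100 kb held a precursor. A window held at most 32, and the median distance between neighbouring precursors on the chromosome was 3546 nt. The plus strand carried 291 and the minus strand 275.

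The 5′ ends of 373 precursors (65.9%) lay outside protein-coding genes, 184 (32.5%) in introns and 9 (1.59%) in exons, against 61.9%, 34.1% and 3.97% of the other 13278 type I loci. Among the precursors in genes, 88 lay on the strand of the host gene and 105 on the opposite strand. The files label piRNAs by the germ cells they are known from. The Oogenic label was on 190 precursors (33.6%) and the Spermatogenic label on 30 (5.30%), while over all type I loci the labels were on 12.4% and 26.8%. The remaining 346 precursors had no such label. The share of oogenic labels was thus larger among the precursors than among type I loci in general. It was also larger among the 906 loci of moderate csRNA level, defined below, with 26.2% Oogenic and 14.6% Spermatogenic. Loci with csRNA under the moderate level had 14.4% and 28.9%, and loci without csRNA in the control CIP-TAP library 7.11% and 28.5%. The Oogenic share thus rose with csRNA level and was not particular to the precursors. These differences are given by counts and were not tested.

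The sequence of 21ur-3442 (WBGene00050780, IV:15545438-15545458, minus strand, outside protein-coding genes) is shown because this precursor was also assayed on its own by quantitative PCR. Its 21 nt were joined from the gene-specific parts of the designed primers, which overlap by 3 nt, and the capital marks the 5′ T of the piRNA.
21ur-3442: Tactagagtgttgagattgtg
The primers at the promoter of 21ur-2675 (WBGene00050258, IV:15316350-15316370, plus strand), another precursor assayed on its own, are shown because they bound the stretch used for ChIP followed by quantitative PCR. They have no capitals.
21ur-2675 promoter, sense primer: aattggtttttctggcgctat
21ur-2675 promoter, antisense primer: tccgccaaagaggctaaata

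The precursors together had 361261 normalised csRNA counts in the control CIP-TAP library, 71.5% of all type I csRNA there. The levels were uneven. The lowest was 200.4, the median 413.3 and the highest 9551, and 84 precursors reached 1000 or more. The 10 highest held 8.41% of type I csRNA and the 100 highest held 33.4%.

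21ur-1222, which lies outside protein-coding genes at IV:15411485-15411505, was the highest at 9551. 21ur-5504 followed with 8333 and then 21ur-4136, in an intron of Y45F10D.15, with 3647. These 3 were followed by 21ur-538 (3438), 21ur-15573 (3119), 21ur-1437 (3078), 21ur-4359 (3038), 21ur-4358 (2804), 21ur-4881 (2795) and 21ur-1050 (2708). The top 2 loci stood apart, each with more csRNA than 21ur-4136 and 21ur-538 together. Just inside the threshold were 21ur-1932 at 202.0, 21ur-423 at 201.0 and 21ur-10190 at 200.4, and just outside it 21ur-1245 at 199.8 and 21ur-8183 and 21ur-5391 at 199.6 each, so that no gap separates the precursors from the 906 loci of moderate level (50 to under 200).

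In the PIR-1 libraries, which leave caps in place, little of this csRNA was seen. The summed csRNA of the precursors was 247.2 and 273.7 normalised counts in control animals, which was 6.39% and 6.20% of type I csRNA in those libraries. In the deletion controls it was 204.3 and 185.7. Of the 566 precursors, 46 had no csRNA count in either control PIR-1 library. The highest mean of the 2 was that of 21ur-5524, with 27.4 and 20.9 in controls, and 21ur-1222 had 3.31 and 3.37. The order of loci in the PIR-1 csRNA was therefore not that of the CIP-TAP library.

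A mature piRNA row was present for 542 of the 566 precursors. The mean over the 2 control PIR-1 libraries had a median of 82.1 normalised counts, with a lowest value of 0 and a highest of 3930. The moderate loci had a median of 37.2, and the 5731 loci with csRNA above 0 and under 50 had a median of 4.51. Of the 100 type I loci with the most mature piRNA in controls, 54 were precursors. In the deletion controls, an independent strain, 56 of the top 100 were precursors.

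Spearman's rho between csRNA and mature piRNA was 0.20 over the 566 precursors (0.19 with the deletion controls) and 0.17 over the 906 moderate loci. It was 0.55 over the 7203 type I loci with csRNA, but both smaller sets were cut from that range by their csRNA, which by itself lowers rho. These are descriptions across loci of the same libraries. The mature levels themselves were close between the libraries, with rho of 0.99 between the 2 controls and 0.91 between the means of the controls and the deletion controls.

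**Figure D1:**
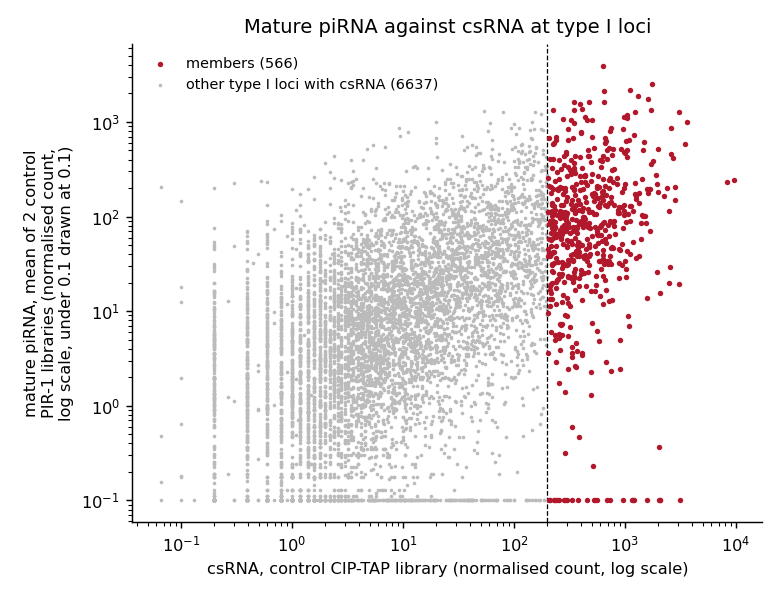
Mature piRNA (y axis, mean normalised count of the 2 control PIR-1 libraries, log scale, values under 0.1 drawn at 0.1) against csRNA (x axis, normalised count in the control CIP-TAP library, log scale) for 566 precursors (members, red) and 6637 other type I loci with csRNA (grey). The dashed line is the threshold of 200, and the red points spread between 0 and 3930 on the y axis with no gap at the line.

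The ratio of mature piRNA to csRNA sets normalised counts of 2 kinds of library against each other, so it ranks loci and does not give molecules per transcript. Its median over the precursors was 0.178, against 0.411 over the moderate loci and 1.03 over the loci under 50. A ratio of 1 or more was found at 57 precursors (10.1%) and at 237 moderate loci (26.2%). Because csRNA chose the precursors and is the denominator, a lower ratio in them is in part built into the choice.

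The 3 highest ratios were 6.22 at 21ur-3730, 6.03 at 21ur-3085 and 4.77 at 21ur-1791. 21ur-3730 lies in an intron of Y64G10A.7 on the same strand and had the highest mean of mature piRNA of all precursors in these 2 control libraries, while 21ur-2446 was higher in the deletion controls. 21ur-3730 had 4046 and 3814 normalised counts in controls, with 632.3 of csRNA. 21ur-3085 lies in an intron of talp-3, also on the same strand. The lowest ratios above 0 were at 21ur-10493 (2005 of csRNA, with 0.509 and 0.225 of mature piRNA in controls), 21ur-12553 and 21ur-10828.

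At 24 precursors no mature piRNA was listed in any of the 12 libraries. They include 21ur-15573, the fifth highest csRNA of all at 3119, and 21ur-6939 (2065), 21ur-8497 (2064), 21ur-5879 (2039), 21ur-6225 (1573), 21ur-8258 (1209), 21ur-8496 (1178) and 21ur-12584 (1154). A missing row is set to 0 here, but the tables do not show whether no read was found or none met the rules for mature reads, such as a unique match and a 5′ T, so no upper limit is given. A further pair of precursors, 21ur-13693 and 21ur-15571, had a mature row in some library and no count in either control, which makes 26 at 0 in both.

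Overlapping annotations bear on these levels, since 285 of the 566 precursors had another annotated type I 5′ end within 5 nt on the same strand. Mature reads are counted when they start at the annotated first base or at either of the next positions, so a neighbour just upstream counts the same reads. There were 122 pairs in which the neighbour began 1 nt upstream. Its mature count was 1.04 times that of the precursor (median), and within 1.25-fold of it in 108 of 122 pairs, while its csRNA was 0 in 77 of them. Where the neighbour began 1 nt downstream, in 59 pairs, its mature count was 0.00423 times that of the precursor and its csRNA 0.0102 times. Because csRNA chose the precursors, a lower csRNA at the neighbour is in part built into the choice. Whether csRNA rows separate neighbours in general was not tested. Under the counting rule above, the mature rows of neighbours 1 nt upstream repeat reads of the precursor. At 3 and 4 nt upstream the median mature ratios were 0.0407 (61 pairs) and 0.0390 (29 pairs). For 21ur-5504 the mature counts in controls were 225.6 and 242.9, and for its neighbour 21ur-8276, 1 nt upstream, they were 227.0 and 244.3.

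After depletion of ATTF-6 the csRNA of the precursors was nearly gone. The precursors summed to 1397 normalised counts in the depleted CIP-TAP library (95% Poisson interval, 1360 to 1435) and to 361261 in the control library (360736 to 361786). This was 259-fold lower with depletion (interval 252 to 266, counting error only, 1 library each). Over all type I loci csRNA was 120.2-fold lower, over the moderate loci 92.4-fold and over all loci outside the 566 51.4-fold. Since the same control value chose the precursors, part of this fold is built into the choice and no test is given. The precursors held 33.2% of type I csRNA in the depleted library and 71.5% in the control library.

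No csRNA read was left at 153 of the 566 precursors in the depleted library, and 284 had 3 counts or fewer. The median was 0.789 normalised counts with depletion and 413.3 in the control. With 3 counts as the floor, the fall had a median of 339-fold. 21ur-1222 had 9.73 in the depleted library against 9551 in the control library, 982-fold lower. 21ur-5504 had 3.68 against 8333, 2265-fold lower, and 21ur-4136 had 4.73 against 3647, 771-fold lower.

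Both precursors with printed sequences had little or no csRNA left. 21ur-3442 had 3.15 normalised csRNA counts in the depleted library, against 1048 in the control library. 21ur-2675 had none in the depleted library, against 480.9 in the control library, and was at least 610-fold lower with 3 counts as the floor. Those with the Oogenic label fell in sum to 200.3 in the depleted library, against 118777 in the control library (593-fold). Those with the Spermatogenic label had 154.8 in the depleted library, against 13591 in the control library (87.8-fold).

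A single precursor, 21ur-12937 (WBGene00167822), stood apart from the rest. It is on chromosome I, at I:7279603-7279623 on the minus strand, outside both clusters. It had 263.1 normalised csRNA counts in the depleted library and 385.7 in the control library, 1.47-fold lower. The locus overlaps the 5′ end of the protein-coding gene F21C3.7 (I:7278735-7279614) on the same strand. Whether reads of that gene are counted at the locus was not tested. The next highest precursors in the depleted library were 21ur-3987, in an exon of T23G4.2 on the same strand, with 23.1 against 980.5 in the control, and 21ur-8258 with 21.03 against 1209 in the control. Without 21ur-12937 the sum was lower by 8.31 on the log2 scale in place of 8.01.

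**Figure D2:**
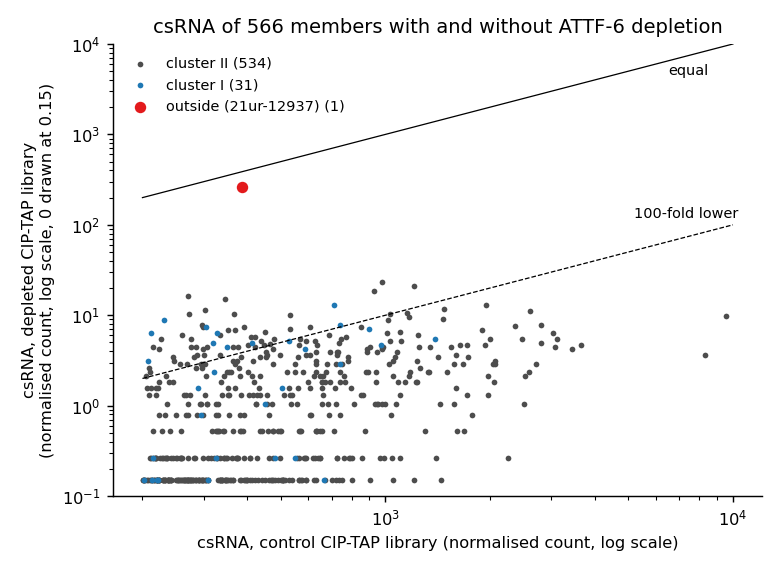
csRNA of each of the 566 precursors in the depleted CIP-TAP library (y axis, normalised count, log scale, 0 drawn at 0.15) against the control CIP-TAP library (x axis, normalised count, log scale), by cluster. The solid line marks equal levels and the dashed line 100-fold lower; 21ur-12937, the red point at 263.1 against 385.7, is the point nearest to the solid line.

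In the PIR-1 libraries the csRNA of the precursors was lower as well, by less. It summed to 74.0 and 77.0 normalised counts in depleted animals and to 247.2 and 273.7 in controls, 3.45-fold lower. The groups did not overlap, and the exact permutation test gives p = 0.33, the smallest that 2 against 2 allows. Only 76 of the 566 csRNA rows passed the filter (a mean of 0.5 normalised counts), 490 being too low to test. Of the 76, 30 were called lower and 0 higher, 34 having an unadjusted p under 0.05 (34 of them lower). These 30 are 39.5% of the rows tested, a smaller share than the 54.6% called lower over all features in the same fit. A row that passed only through the controls had to differ, so this count is no measure over all precursors, and DESeq2 called 4. The clearest locus, named after its values were seen, was 21ur-5524. It had 1.65 and 0.726 in depleted animals against 27.4 and 20.9 in controls (log2 fold change -4.29, SE 0.45, edgeR adjusted p = 1.65e-23). The most transcribed locus, 21ur-1222, had 3.51 and 1.69 in depleted animals and 3.31 and 3.37 in controls, which the test did not separate (edgeR adjusted p = 0.553).

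Mature piRNAs of the precursors fell together. They summed to 2493 and 2652 normalised counts in depleted animals and to 104116 and 121285 in controls, 2573 ± 112 against 112701 ± 12140 (SD, n = 2 each), 43.8-fold lower (exact permutation p = 0.33, the smallest possible). Of 566 precursors, 24 had no mature row, 6 more were filtered out as too low, and 536 were tested. Of these, 535 were called lower and 0 higher by edgeR's quasi-likelihood test at an adjusted p under 0.05. Over all 33715 features tested, 54.6% were called lower and 12.7% higher. The mature levels had no part in choosing the precursors. The call was shared by other type I loci, with 859 of 862 moderate loci (99.7%) and 4267 of 4355 loci with csRNA under 50 (98.0%) called lower. In each of these classes a row that passed the filter only through the controls had to be lower. The counts are therefore no measure over all loci of a class.

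The median log2 fold change of the tested precursors was -5.53, against -5.28 over the moderate loci, -4.71 over the loci with csRNA under 50, and -1.39 over all features. In depleted animals 108 of the 536 had 3 counts or fewer in both libraries, and with these set to their bound the median of the precursors was -5.33. So had 278 of the 862 moderate loci and 2608 of the 4355 loci under 50. With bounds the medians of these classes were -4.77 and -3.29. With TMM scaling the median of all features was -0.28 and that of the precursors -4.41, so the distance between them, 4.14 below, was 4.13 below with TMM. The share of higher among all calls was 18.9% here and 44.1% with TMM.

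The most transcribed locus followed the group. 21ur-1222 had 4.34 and 3.87 normalised counts of mature piRNA in depleted animals, against 247.0 and 238.9 in controls (log2 fold change -5.87, SE 0.08, edgeR adjusted p = 1.80e-65). 21ur-4136 had 22.9 and 17.9 in depleted animals against 872.2 and 1124 in controls. 21ur-3730 had 74.4 and 81.6 in depleted animals against 4046 and 3814 in controls. Depleted and control libraries were far apart at each of these loci.

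21ur-3442, whose sequence is given above, had 24.4 and 24.4 in depleted animals against 1115 and 1239 in controls, 48.2-fold lower. 21ur-2675 had 0.929 and 1.45 in depleted animals against 62.9 and 88.5 in controls, 63.6-fold lower, but its upstream neighbour 21ur-10281 counts the same mature reads. Both were called lower (edgeR adjusted p = 1.36e-76 and 2.83e-49).

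The most negative fitted log2 fold changes were at loci with no or nearly no read left, where the fit gives no size and only a lower bound can be stated. 21ur-3270 had 0 and 0 in depleted animals against 66.0 and 87.9 in controls, at least 114-fold lower. 21ur-2443 had 0 and 0 against 9.42 and 14.6 in controls, at least 17.9-fold lower, and 21ur-6478 had 0 and 0.242 against 36.4 and 54.8 in controls, at least 67.8-fold lower. All 3 had the 3 counts of each depleted library as the floor, and these bounds do not place them above loci with measured falls.

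The smallest falls were at 21ur-3118 and 21ur-2230, both in introns on the strand opposite to the host gene. 21ur-3118 had 2.07 and 1.82 in depleted animals against 11.1 and 16.5 in controls (log2 fold change -2.75, SE 0.28). 21ur-2230, which has the Spermatogenic label, had 3.51 and 4.36 in depleted animals against 31.8 and 44.0 in controls (log2 fold change -3.26, SE 0.27). The exception in direction was 21ur-12937 on chromosome I, the same locus that kept its csRNA. It had 1.24 and 1.69 in depleted animals and 0.255 and 0.674 in controls, and the test did not call it (log2 fold change 1.75, edgeR adjusted p = 0.0687), while with TMM scaling it was called higher.

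**Figure D3:**
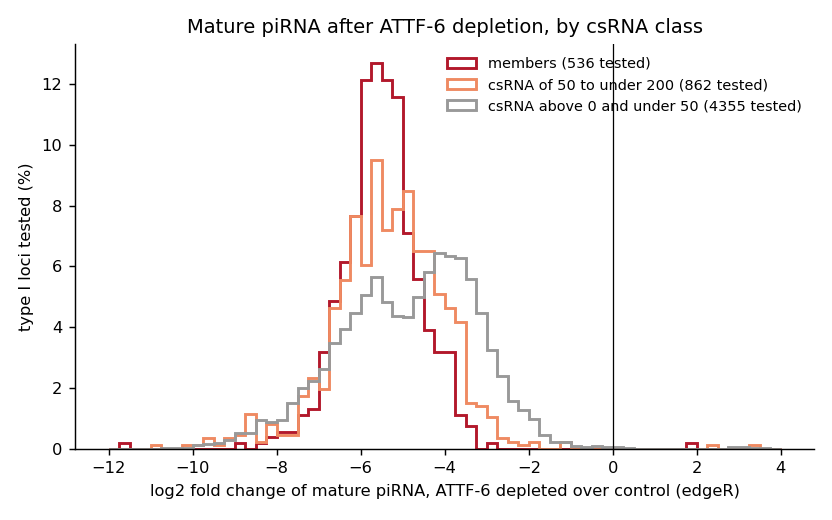
Distribution of the log2 fold change of mature piRNA, ATTF-6 depleted over control (x axis, edgeR), as percent of the loci tested (y axis), for 536 precursors (red), 862 moderate loci (orange) and 4355 loci with csRNA under 50 (grey). The medians are -5.53, -5.28 and -4.71, and the single red bar right of 0 is 21ur-12937. With loci at 3 counts or fewer in both depleted libraries set to their bound, the medians are -5.33, -4.77 and -3.29.

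By label, the tested precursors with the Oogenic label had a median log2 fold change of -5.87 and all 187 were called lower. Those with the Spermatogenic label had a median of -4.45 and all 30 were called lower. Those with no label had a median of -5.37, with 318 of 319 called lower. Cluster I and cluster II precursors had medians of -5.43 (28 tested) and -5.54 (507 tested).

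The precursors held a smaller part of the type I mature piRNA that remained. Their share was 21.6% and 20.6% in depleted animals and 31.9% and 31.1% in controls. The groups did not overlap, with p = 0.33 by the exact permutation test, the smallest possible. Upstream neighbours that repeat the mature reads of a precursor are counted among the other loci unless they are precursors themselves. The log2 change of the share was -0.58, and -0.70 over loci with no type I locus within 5 nt. Other type I loci summed to 9654 ± 828 normalised counts in depleted animals and to 245395 ± 32427 in controls (SD, n = 2 each), 25.4-fold lower, beside the 43.8-fold of the precursors and the 34.1-fold of the moderate loci alone. Within the Oogenic label the precursors were 57.3-fold lower and the other loci 55.0-fold lower. Within the Spermatogenic label the folds were 23.6 for the precursors and 13.9 for the other loci, and with no label they were 40.5 and 30.3. These differences between sets of loci were not tested. In the PIR-1 csRNA the share moved the other way, with 11.2% and 12.5% in depleted animals and 6.39% and 6.20% in controls.

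**Figure D4:**
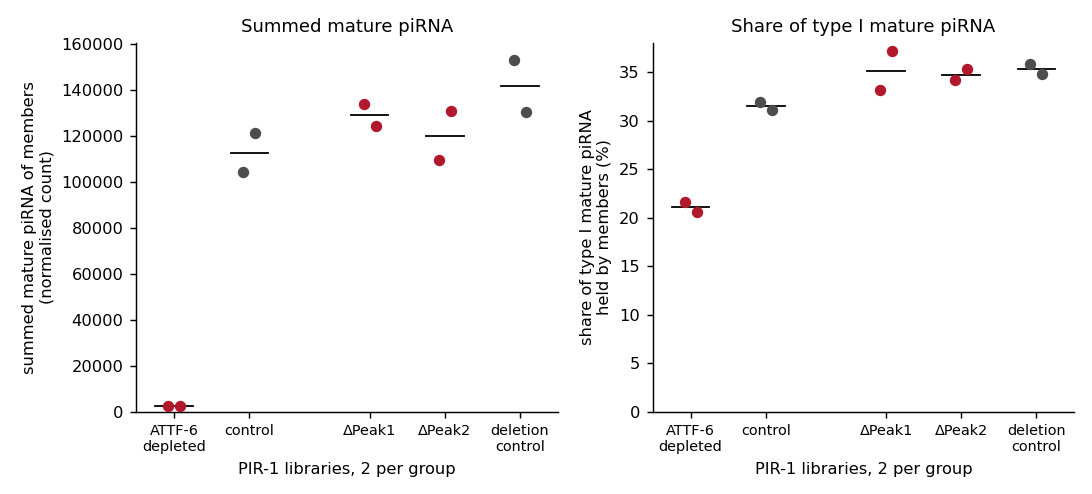
Summed mature piRNA of the 566 precursors (left, normalised count) and their share of all type I mature piRNA (right, %) in each of the 10 PIR-1 libraries; points are libraries and lines group means. The depleted libraries are at 2493 and 2652, below every other library, and their shares of 21.6% and 20.6% are the lowest.

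Genes of the pathway that transcribes and matures these RNAs were looked at through the siRNAs counted over them, which do not measure their mRNA or protein. Of 17 listed genes, 15 had a row that was tested, and 14 were called lower and 0 higher, where 54.6% of all features were called lower and 12.7% higher. With TMM scaling 9 were called lower and 1 higher (uad-2), where 12906 of all 33715 features were called lower and 10169 higher. The median log2 fold change was -1.90, against -1.39 over all features, and -0.78 with TMM. Over prg-1, the Argonaute of the pathway, siRNAs were 244.8 and 187.4 normalised counts in depleted animals against 923.0 and 849.3 in controls. Over prde-1, which is needed for transcription at these loci, they were 14.5 and 8.71 in depleted animals against 71.3 and 63.4 in controls. Over uad-2, a chromodomain protein of piRNA transcription, they were 33.9 and 26.4 in depleted animals against 41.7 and 37.5 in controls, which was not called. In neither deletion strain was a listed gene called.

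The deletion strains ask whether single sites bound by ATTF-6 matter for these loci. In ΔPeak1 the precursors' mature piRNA summed to 134128 and 124240 normalised counts, against 153077 and 130428 in the deletion controls, and the groups overlapped (ratio 0.911, exact permutation p = 0.667). Of the 540 precursors tested, 0 were called by edgeR, where 0.149% of all 31462 features were. An unadjusted edgeR p under 0.05 was found for 52 of the 540, all lower. Over all 31462 features it was found for 1628, of which 1057 were lower. DESeq2 also called 0 precursors, where 41 of all features were called lower and 41 higher. The median log2 fold change was -0.16, against -0.15 over the moderate loci, -0.16 over the loci with csRNA under 50 and -0.03 over all features. Without the second ΔPeak1 library 27 precursors were called, 17 lower and 10 higher, where 83 of all features were called lower and 118 higher.

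In ΔPeak2 the precursors summed to 109474 and 130878, against 153077 and 130428 in the same deletion controls. The groups overlapped (ratio 0.848, exact permutation p = 0.667). Of 540 tested, 7 (1.30%) were called, all lower, where 0.308% of all features were called and 0.245% were called lower. An unadjusted edgeR p under 0.05 was found for 167 of the 540, of which 165 were lower. It was found for 212 of 873 moderate loci (208 lower) and for 2977 of all 31462 features (2526 lower). The median log2 fold change was -0.29, against -0.27 over the moderate loci, -0.30 over the loci with csRNA under 50 and -0.14 over all features. The mean share of type I mature piRNA held by the precursors was 34.7% in ΔPeak2 and 35.3% in the deletion controls. The calls did not hold with either ΔPeak2 library or either deletion control left out, which leaves 1 library in a group. Calls over all features dropped in those fits as well. Their medians lay between -0.42 and -0.19 for the precursors and between -0.17 and -0.11 over all features. With TMM scaling 1 precursor was called, where 39 of all features were called lower and 22 higher. When libraries were scaled to miRNA counts 58 precursors were called, where 325 of all features were called lower and 13 higher. The median of the precursors was -0.17 with TMM, against -0.02 over all features, and -0.47 with miRNA scaling, against -0.32 over all features. Calls in the higher direction made up 20.6% of all calls here, 36.1% with TMM and 3.85% with miRNA scaling.

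The 7 precursors called lower in ΔPeak2 were 21ur-1762, 21ur-1791, 21ur-2594, 21ur-391, 21ur-2582, 21ur-1120 and 21ur-2199. 21ur-1762 had 480.1 and 585.1 normalised counts in ΔPeak2 against 1039 and 1090 in the deletion controls (log2 fold change -0.998, SE 0.15, edgeR adjusted p = 0.0303). 21ur-1120 had 37.9 and 30.97 in ΔPeak2 against 84.1 and 72.1 in the deletion controls (log2 fold change -1.18, SE 0.18, edgeR adjusted p = 0.0309). 21ur-2199, the only one in cluster I, had 19.5 and 18.8 in ΔPeak2 against 41.1 and 43.6 in the deletion controls (log2 fold change -1.14, SE 0.05, edgeR adjusted p = 0.0359). Libraries of the groups did not overlap at these 3 loci. None of the 7 was called in ΔPeak1, which shares the controls. All 7 were lower there too, with log2 fold changes between -0.55 and -0.25. Both ΔPeak1 libraries lay below both deletion controls at each of the 7, as at 21ur-1762 with 621.0 and 833.0. Because the 7 were chosen by their fall against these same controls, lower ΔPeak1 values are in part built into the choice. Of all 540 precursors tested, 402 had a negative log2 fold change in ΔPeak1.

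**Figure D5:**
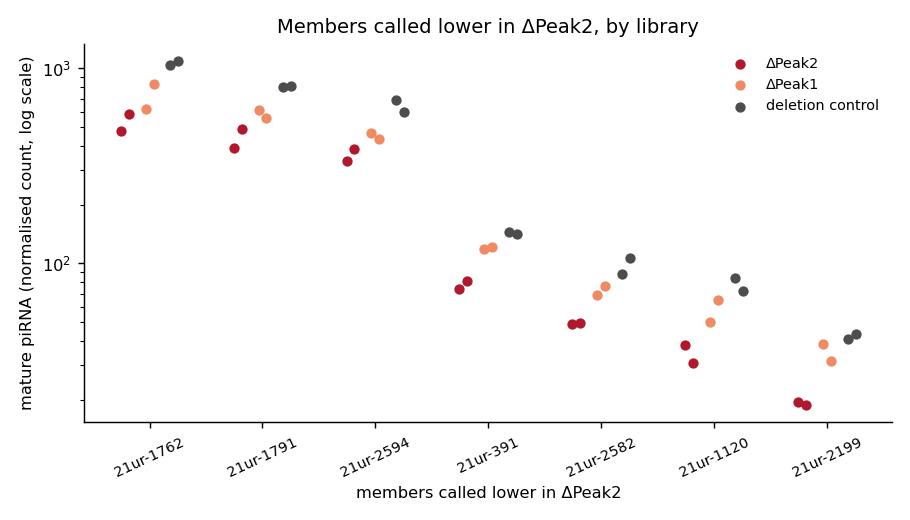
Mature piRNA (y axis, normalised count, log scale) of the 7 precursors called lower in ΔPeak2, with 1 point per library for ΔPeak2 (red), ΔPeak1 (orange) and the deletion control (grey), 2 libraries each. For each precursor both ΔPeak2 points lie below both control points, as they do at 480.1 and 585.1 against 1039 and 1090 for 21ur-1762. Both ΔPeak1 points also lie below both control points for each precursor. This is in part built into the choice, since the strains share the controls.

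The precursors next to the deleted sites were not among these 7. Within 5 kb of the middle of the ΔPeak1 interval lay 21ur-4776, 21ur-1776, 21ur-5826 and 21ur-5510, the last with no mature row. 21ur-4776 had 152.8 and 174.5 in ΔPeak1 against 255.5 and 171.1 in the deletion controls, and the libraries overlapped. 21ur-1776, which starts 3 nt upstream of it, had 66.8 and 108.7 in ΔPeak1 against 160.2 and 86.9 in the deletion controls. 21ur-5826 had 185.8 and 114.4 in ΔPeak1 against 180.7 and 150.8 in the deletion controls. None of the 3 was called, and their log2 fold changes lay between -0.50 and -0.15.

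Within 5 kb of the middle of the ΔPeak2 interval lay 21ur-2446 and 21ur-5444. 21ur-2446 is among the most abundant mature piRNAs of the group, with 5254 and 6174 in ΔPeak2 against 5612 and 5542 in the deletion controls. 21ur-5444 had 272.8 and 348.6 in ΔPeak2 against 266.8 and 220.8 in the deletion controls (log2 fold change 0.35, SE 0.22, edgeR adjusted p = 0.498). Within 200 kb, 61 precursors were tested in ΔPeak2, with a median log2 fold change of -0.31, and 36 in ΔPeak1, with a median of -0.18, close to the medians of -0.29 and -0.16 over all tested precursors.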

How the data were processed

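Small RNA libraries were trimmed with Trim Galore and aligned with Bowtie by the authors, who used WormBase WS279 (tool versions are not given in the sources used here). The deposited tables give estimated counts per feature, mostly whole numbers, and a normalised signal, in which each count is scaled by the authors to total mapped reads. In every table the ratio of the 2 columns is a single constant. For piRNA rows the authors required a unique sense match and a 5′ T, and csRNA rows hold reads that start in the stretch just upstream of the piRNA. A feature with no row in a library was set to 0 there.

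Loci were joined by gene ID to the Ensembl release 115 annotation of WBcel235, and every type I locus matched. Counts were rounded and tested with edgeR 4.0.16 (quasi-likelihood test, those constants as library sizes, Benjamini-Hochberg adjustment over all features with a mean of at least 0.5 normalised counts, R 4.3.3). The depletion fit used 4 PIR-1 libraries, and the deletion fit used the 6 libraries of the deletion experiment. On simulated counts with 200 features changed by 2 on the log2 scale, 95% were recovered in the depletion fit and 94% in the ΔPeak1 fit. The changed features had a mean of at least 5 normalised counts, as many up as down, among 33703 and 31457 features. Recovery at lower counts, or with most features changed, was not tested. SEs are from the spread of log2(normalised count + 0.5). Sums and shares were compared by two-sided exact permutation tests of log2 values. CIP-TAP sums have exact Poisson intervals. Summed counts per library ranged between 6352629 and 31931330, and 173 of the 566 precursors had fractional counts.

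The members and the gene and miRNA lists were chosen with earlier results of these data known. Named loci are the 10 highest by csRNA, the 3 highest and lowest ratios (26 loci tied at 0 were left out), the loci assayed on their own, those within 5 kb of a deletion, the 3 largest and smallest changes, the 3 on each side of the threshold, up to 3 called per deletion strain (all 7 in ΔPeak2 are named), any outside the clusters, and the 3 with the most csRNA after depletion; a few others were named after their values were seen. The alternatives were TMM scaling, scaling to miRNA counts, DESeq2 1.42.0, other filters, a replicate block, each library left out, other thresholds (100 and 400) and, chosen after seeing the data, loci with no type I locus within 5 nt, cluster II loci only, and loci of the chromosome IV clusters. Sequence motifs were not analysed here.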

Additional observations from a re-analysis of the deposited data

How the results depend on the processing

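The fall of mature piRNA kept its direction under every alternative run. The number of precursors called lower, 535, was 496 to 536 under the other scalings, filters, tools and fits, 532 to 535 with 1 library left out, and 535 with the replicate block; it was 924 and 277 with thresholds of 100 and 400, and 264 among precursors with no type I locus within 5 nt, because more or fewer loci were counted. For csRNA in the PIR-1 libraries, the 30 called lower became 14 with TMM scaling, 4 with DESeq2, 1 with a mean of at least 5, 12 among the precursors without such a neighbour, 28 with the replicate block, and 15 to 29 with 1 library left out. In ΔPeak1, the 0 called became 11 with no filter and 0 to 27 with 1 library left out, and stayed 0 with the replicate block. Over all features 123 were called lower and 65 higher in ΔPeak1 with no filter, and 17 lower and 15 higher with the replicate block. In ΔPeak2, the 7 called became 1 with TMM scaling (21ur-2199), 58 with scaling to miRNA counts, 96 with no filter, 2 among precursors without a neighbour, 1 with the replicate block (21ur-1762), and 0 to 75 with 1 library left out, the 75 without either ΔPeak1 library. The cause of this spread was not tested. Over all features the ΔPeak2 calls were 534 lower and 77 higher with no filter, and 18 lower and 6 higher with the replicate block. Without a ΔPeak1 library they were 420 or 422 lower and 63 higher. Replicate numbers only name the libraries: deviations of same-numbered libraries correlated at 0.14 across features in the depletion experiment, at -0.05 for ΔPeak1 and at -0.04 for ΔPeak2.

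The fall of summed csRNA in the CIP-TAP libraries, -8.01 on the log2 scale, was -7.52 per summed counts, -7.59 per type II csRNA, -7.77 and -8.50 with thresholds of 100 and 400, -7.61 without neighbouring loci and -8.31 within the clusters. The median ratio of mature piRNA to csRNA, 0.178, was 0.226 and 0.126 with those thresholds. Over all features the depletion calls, 18392 lower and 4291 higher, were 12906 and 10169 with TMM and 9664 and 7203 with DESeq2. 21ur-12937 had a log2 fold change of 2.86 with TMM. With 2 libraries a group, a sum cannot reach p under 0.05, and loci at 3 counts or fewer give only bounds.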
